A study of Mus musculus with 8 samples.

Results

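Tuft-like medullary thymic epithelial cells (mTEC) were chosen from single thymic stromal cells by their RNA. A cell was a member if it held more UMIs (unique molecular identifiers, the counted molecules) of the epithelial genes Epcam, Krt8, Krt18 and Krt5 than of the fibroblast genes Col1a1, Col1a2, Col3a1 and Dcn, fewer than 2 UMIs of Aire, and at least 3 of the 7 rule genes Trpm5, Pou2f3, Avil, Sh2d6, Gnb3, Alox5ap and Il25. Of 9953 cells, 6911 were epithelial by this rule and 71 were tuft-like. At 16 weeks, 29 of 1226 epithelial cells of well 1 and 40 of 3011 of well 2 were members, and at 1 week each well held 1. Unless another class is named, comparisons below are between these 69 cells and the other 4168 epithelial cells of 16 weeks. Because the RNA of the members also chose them, their gene levels are given as a description, without a test.

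The samples were thymi of wild-type C57BL/6 mice, with 6 thymi at 1 week and 3 at 16 weeks, and no treatment was given. CITE-seq counted the mRNA of each cell together with 27 DNA tags, of which 26 were carried by antibodies and 1 by streptavidin on the lectin UEA1. CD45+ cells were depleted, and EpCAM1+ and EpCAM1- cells that lacked CD45 and Ter119 were sorted and mixed, with EpCAM1+ cells in excess, so shares of cells are set in part by the sort. The thymi of an age were 1 pool loaded on 2 wells, so the spread between wells covers capture and library preparation, not mice, and no p-value was computed.

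Tuft cells are chemosensory epithelial cells with an apical tuft of microvilli, known from the gut and airway. They detect ligands through a taste-type cascade in which a G protein activates a phospholipase C and the cation channel TRPM5 opens, and they release the cytokine IL-25, leukotrienes and acetylcholine. The transcription factor POU2F3 is required for their formation. Epithelial cells of this type are found in the thymic medulla among other mTEC that resemble cells of peripheral tissues.

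The surface readout rested on short oligonucleotides, one for each reagent. The barcodes of 9 tags that the results turn on are shown 5′ to 3′ in lower case, since each count of such a tag is a count of its sequence. They are the 6 most raised tags, the 2 most lowered ones and Sca1, whose difference changed with the comparison cells:
CD117: tgcatgtcatcggtg
CD9: tagcagtcactccta
EpCAM1: acccgcgttagtatg
CD274: tcgattccaccaact
UEA1: aacctttgccactgc
CD80: gacccggtgtcattt
CD54: ataaccgacacagtg
CD63: atccgacacgtatta
Sca1: ttcctttcctacgca

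Tuft-like cells made up 2.37% of the epithelial cells of well 1 at 16 weeks (95% Clopper-Pearson interval 1.59 to 3.38) and 1.33% of those of well 2 (0.951 to 1.80). The mean was 1.85% ± 0.733 (SD, n = 2 wells). At 1 week the shares were 0.0648% (0.00164 to 0.361) and 0.0884% (0.00224 to 0.492). The wells of the 2 ages did not overlap, and neither did their intervals, which cover counting error only, and age and pool cannot be told apart. The 1-week member of well 1 held 6 of the 7 rule genes in 8226 UMIs, with 18 UMIs of Gng13 and 14 counts of the CD117 tag. That of well 2 held 4 rule genes in 48293 UMIs, a depth far above the 25935 UMIs of the deepest member of 16 weeks, with 24 UMIs of Gng13 and 17 counts of CD117.

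Depth differed between the wells. Members of well 1 held a median of 10332 RNA UMIs against 6399 in the other epithelial cells, and members of well 2 held 5782 against 5799. The median tag count was lower on members, at 2557 against 3491 in well 1 and 1904.5 against 2716 in well 2. Mitochondrial genes took 7.02% and 9.73% of the members' UMIs against 5.41% and 6.13%, and the part of this in the results was not tested. The 4 libraries held 21281389 to 45480790 RNA UMIs, and 15 cell barcodes occurred in more than 1 library, none of them a member's. No member was among the 253 predicted doublets.

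The limit of 3 rule genes fell at a step in genes that the rule did not use. Of the 69 members, 13 held 3 rule genes, 17 held 4, 13 held 5, 19 held 6 and 7 held all 7. Among cells under the Aire limit, in the 45 with 2 rule genes, just outside, Gng13 stood at 17.1 CPM (summed counts scaled to a total of 1000000 UMIs) and Lrmp at 39.4, and in the 13 cells with 3, just inside, they stood at 307.9 and 317.8. The mean CD117 tag level was 1.09 and 1.45 (log2, wells 1 and 2) with 2 rule genes and 3.30 and 4.18 with 3. With 4 rule genes it was 3.37 and 2.51, so in well 2 it did not rise evenly. The 45 cells with 2 rule genes were deeper than the 13 with 3, with a median of 11498 UMIs against 4540. When every cell was thinned to 2000 UMIs, 47 of the 69 members still held 3 or more rule genes. The Aire-expressing cells described next kept this count in 30 of 56 cells, and no other epithelial cell could hold it by the rule.

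**Figure D1:**
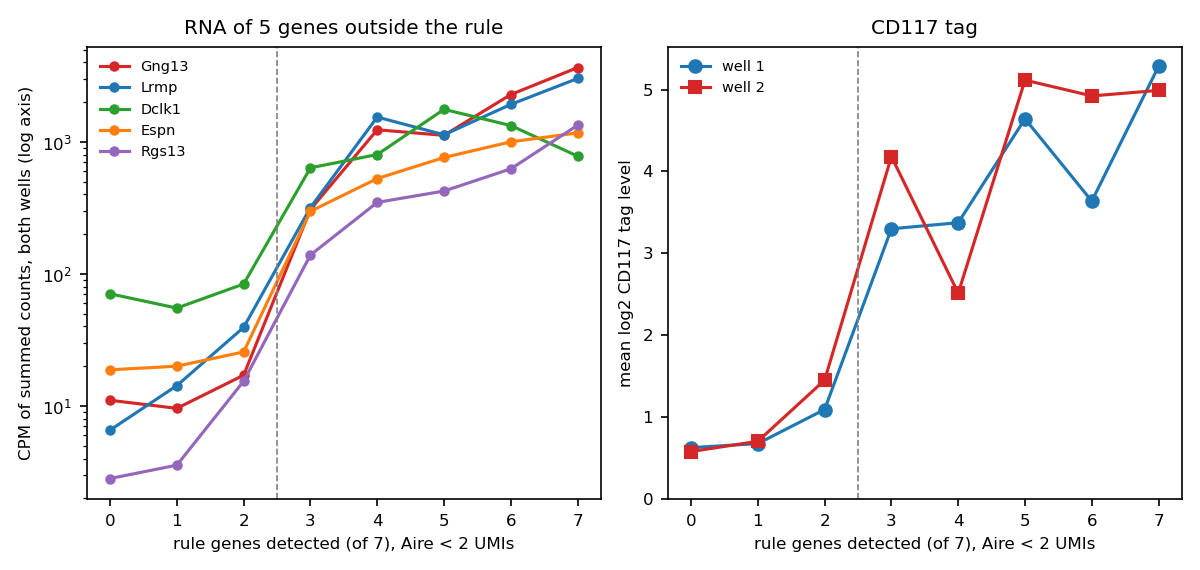
Left, CPM (log axis) of 5 genes outside the rule, from counts summed over both 16-week wells, by the number of rule genes held, for epithelial cells with fewer than 2 Aire UMIs. Right, the mean log2 CD117 tag level by well. The dashed line marks the limit for members, and Gng13 goes from 17.1 CPM at 2 rule genes to 307.9 at 3.

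The Aire limit divided a wider group. A further 17 and 39 epithelial cells of 16 weeks held 3 or more rule genes but 2 or more Aire UMIs, and 39 of these 56 held only 2 or 3. Aire, the regulator of self-antigen expression in mTEC, was also found in cells that should lack it. At least 1 Aire UMI was seen in 51.4% of the 2283 cells with more fibroblast-gene UMIs, at a median depth of 10004 UMIs, and in 50.7% of the members, at 6897. At 2000 UMIs per cell the shares were 18.2% and 20.3%. The rule itself caps the members at 1 Aire UMI, so these shares do not show whether members express Aire. The Aire-expressing cells with 3 or more rule genes were deeper, with medians of 12778 and 13658 UMIs.

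All 5 label markers were present, as the rule requires in part. Trpm5, the taste-type channel, was detected in 66 of 69 members, with 614.9 CPM in well 1 and 699.7 in well 2 against 13.3 and 14.2 in the other epithelial cells. Avil, which encodes the actin-bundling protein advillin, reached 1090 and 1138 CPM against 16.9 and 24.3. Pou2f3 was found in 38 members, at 119.5 and 125.3 CPM against 5.21 and 6.11. Gnb3, a taste G protein subunit, was found in 32 members and Il25 in 30. Il25 differed more between the wells than the others, with 84.5 CPM in well 1 (95% Poisson interval 56.6 to 121.4) and 219.3 in well 2 (168.5 to 280.6) against 1.92 and 2.77. Sh2d6, which encodes an SH2 domain adaptor, was at 638.2 and 557.0 CPM against 11.9 and 11.8, and Alox5ap, the partner protein of 5-lipoxygenase, at 577.0 and 738.0 against 11.0 and 14.4. Trpm5 was seen in 95.7% of members, 4.51% of other epithelial cells and 2.32% of the fibroblast-gene cells, and after thinning to 2000 UMIs in 69.6%, 1.94% and 0.526%. The label markers lie on different chromosomes of GRCm38, with Trpm5 at chr7:143069153-143094642, Pou2f3 at chr9:43123939-43210369, Avil at chr10:127000709-127020994, Gnb3 at chr6:124834240-124840275 and Il25 at chr14:54932695-54935837, all protein-coding genes.

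Across the transcriptome, 17474 genes had at least 50 UMIs in the 16-week epithelial cells. A gene was called higher or lower if CPM + 10 differed by at least 2-fold in both wells. By this rule 569 genes, or 3.26%, were higher in tuft-like cells and 490, or 2.8%, were lower, together 6.06%, and 180 and 21 of them differed by at least 4-fold. The median log2 ratio of all these genes was -0.14 in well 1 and -0.19 in well 2. These counts depended on the rule, with 967 higher and 3174 lower at a pseudocount of 1 CPM, 229 and 79 at 50 CPM, and 834 to 870 higher and 993 to 1272 lower in 1 well alone. Of the 569 genes, 16 reached 50 UMIs only with those of the members. By 16-fold or more in both wells, 21 genes were higher in tuft-like cells. The rule genes Trpm5, Avil, Sh2d6, Gnb3 and Alox5ap, which chose the members, are among these 21.

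**Figure D2:**
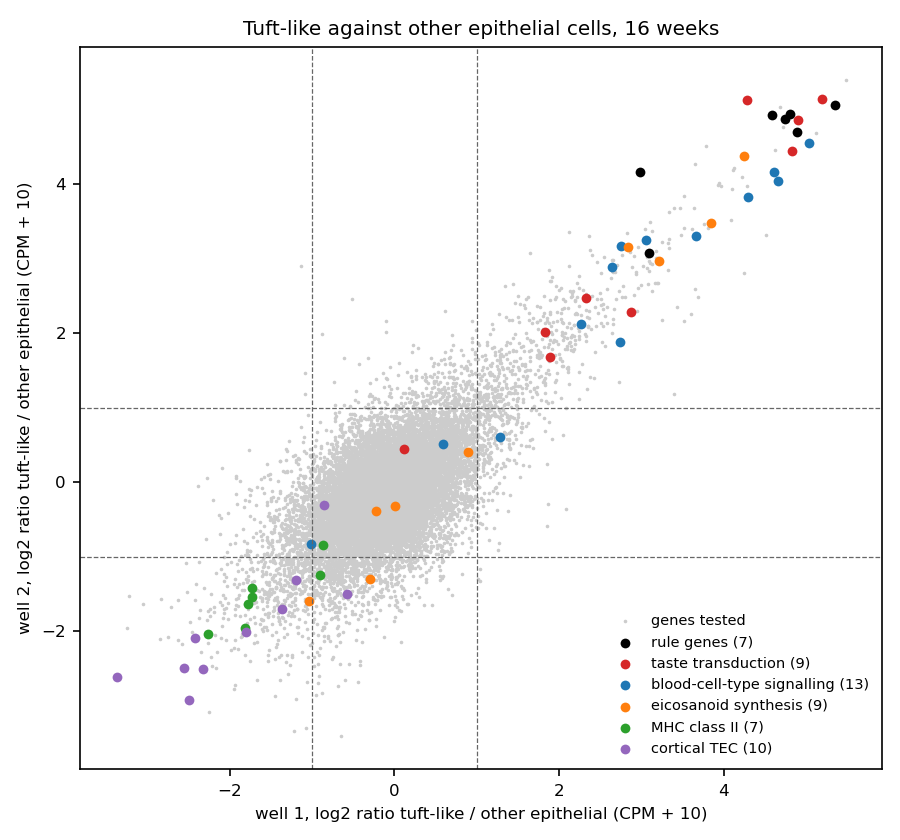
Log2 ratio of tuft-like to other epithelial cells (CPM + 10) in well 1 (horizontal) and well 2 (vertical) for 17474 genes at 16 weeks, with 6 gene lists in colour and their number of genes. Dashed lines mark 2-fold; most taste and blood-cell-type signalling genes lie at the upper right, except Itpr3, Rac2, Ptprc and Coro1a, and most cortical and MHC class II genes lie at the lower left.

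Genes of the taste cascade included some of the largest differences. Of 9 genes with enough counts, Gng13, Plcb2, Gnat3 and Rgs13 were called higher and Itpr3 was not. The other 4, Rgs21, Tas1r3, Tas2r105 and Tas2r142-ps5, were called too but reached 50 UMIs only with those of the members, so the count of the list is not read against the 3.26% of all genes. Gng13, the gamma subunit of the taste G protein, stood at 1638 and 2068 CPM against 35.0 and 49.0, a mean log2 ratio of 5.17 ± 0.04 (SD, n = 2 wells). Plcb2, the phospholipase of the cascade, stood at 489.6 and 449.1 against 7.51 and 11.0. The wells of Gng13 and Plcb2 lay close together and far from those of the other epithelial cells. Gnat3, which encodes the alpha subunit gustducin, was uneven, with 215.6 CPM in well 1 and 581.4 in well 2 against 1.61 and 6.91. It was detected in 28 members, and 1 cell of well 2 held 59 of that well's 167 UMIs. Rgs13, which encodes a regulator of G protein signalling, reached 527.5 and 637.1 CPM against 7.90 and 12.3. Rgs21, from the same family, was detected in only 10 members. Itpr3, the calcium release channel that acts downstream of PLCB2, was not called, with 35.0 and 48.7 CPM against 31.6 and 33.0.

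Receptors at the head of this cascade were sparsely detected. At least 1 UMI of a bitter receptor gene (Tas2r) was found in 40 of 69 members, or 58.0%, and in 68 of the 4168 other cells, or 1.63%. In all, 21 of the 40 Tas2r genes listed were seen in members, and 1 cell held 10 of them. Of the 40, 5 are annotated as pseudogenes, and 3 of these held 43 of the members' 171 Tas2r UMIs. Without the pseudogenes, 36 members and 62 other cells held a Tas2r UMI. Tas2r142-ps5, a pseudogene, and Tas2r105 were called higher, with 35 and 18 UMIs in members against 24 and 39 in the far more numerous other cells. Among these other cells are the Aire-expressing ones with 3 or more rule genes. In them Tas2r105 was at 47.6 and 22.3 CPM and Tas2r142-ps5 at 20.4 and 20.6. In members Tas2r105 was at 32.1 and 24.4 CPM and Tas2r142-ps5 at 67.0 and 41.8. Tas2r genes are a multigene family, and reads that matched several genes were not counted under the aligner's default setting, so the count of each member of the family is uncertain. Tas1r3, a subunit of the sweet and umami receptors, was seen in 15 members and higher than in other cells, at 29.1 and 34.8 CPM against 0.997 and 1.12. Sucnr1, the succinate receptor of gut tuft cells, was found in 1 member and Ffar3 in none, which allows up to 3 UMIs in 630401 over both wells, taking 3 counts as the limit for a count of 0.

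Enzymes of lipid mediators were higher in part, with 4 of 9 tested called higher and 1 lower, beside 3.26% and 2.8% of all genes. Alox5, the 5-lipoxygenase that starts leukotriene synthesis, stood at 341.0 and 379.5 CPM against 8.51 and 8.67. Ltc4s, the leukotriene C4 synthase, reached 495.4 and 452.6 CPM against 44.5 and 48.9, and was as high in the fibroblast-gene cells (526.4 and 623.2). Ptgs1, a cyclooxygenase, was at 317.6 and 268.1 CPM against 12.7 and 14.8, and Hpgds, the prostaglandin D2 synthase of blood cells, at 215.6 and 233.2 against 21.6 and 17.3. Alox5 and Hpgds were found together in 34 members, Alox5 without Hpgds in 17 and Hpgds without Alox5 in 8. Ptgds, the other prostaglandin D2 synthase, was called lower, at 8.74 and 6.96 CPM against 28.4 and 41.4. Tbxas1, the thromboxane synthase, had no UMI in members.

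Among cytokines and receptors 1 of 8 genes was called higher, and with 3.26% of all genes called nothing is read from this count. Il17rb, which encodes a subunit of the IL-25 receptor, stood at 142.8 and 188.0 CPM against 4.52 and 5.40 and was detected in 45 members. Il25 and Il17rb were detected together in 22 members. Il4ra did not pass in well 2, with 198.2 and 156.7 CPM against 79.3 and 79.7, and Tslp was at 17.5 and 13.9 CPM against 5.98 and 4.98. Il13 was also not called, with 23.3 and 17.4 CPM against 50.1 and 56.2.

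Of the 6 tested genes of acetylcholine and of neuronal type, 3 were higher, beside 3.26% of all genes. Chat, which makes acetylcholine, was detected in 42 members at 166.1 and 222.8 CPM against 1.46 and 4.46. Its usual partners Slc18a3, the vesicular transporter, and Slc5a7, the choline transporter, had no UMI in any member. Dclk1, a kinase that marks tuft cells, reached 1297 and 915.6 CPM against 67.1 and 70.7. Its level in the fibroblast-gene cells was 260.0 and 257.0 CPM, above that of the other epithelial cells. Nrgn, which encodes the calmodulin-binding neurogranin, was at 597.4 and 1006 CPM against 13.7 and 21.0 and was found in 34 members. Of the apical cytoskeleton list 2 of 8 genes were higher, beside 3.26% of all genes, namely Espn, an actin bundler, with 795.6 and 818.1 CPM against 33.2 and 38.5, and Vil1, with 23.3 and 27.9 against 6.44 and 8.88. The call of Vil1 rested on 16 UMIs in 10 members, with log2 ratios of 1.02 and 1.00, close to the limit. In the microfold-like cells described below Vil1 was higher than in members, at 28.8 and 60.9 CPM. The keratins Krt8 and Krt18 were not called.

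Genes of signalling known mainly from blood cells were higher for 10 of 13 tested, beside 3.26% of all genes, with a median log2 ratio of 2.96 beside -0.16 over all genes. Fyb, an adaptor of immune receptor signalling, stood at 894.7 and 821.6 CPM against 25.8 and 40.4. Bmx, a kinase gene, was at 603.2 and 438.6 CPM, against less than 10 CPM in the other epithelial cells of either well. Vav1, an exchange factor for small GTPases, was at 297.2 and 236.7 CPM against 5.67 and 7.48. Ptpn6, the SHP-1 phosphatase, was at 335.1 and 449.1 CPM against 31.6 and 38.4. Inpp5d, Plcg2, Lyn, Matk and Cd300lf were called too. Ptprc, which encodes CD45 and was selected against in the sort, was not called, with 35.0 and 17.4 CPM against 8.51 and 8.002. Neither was Rac2, a GTPase of blood cells, at 93.3 and 90.5 CPM against 58.6 and 60.3, nor Coro1a, an actin regulator, which was on the other side at 14.6 and 17.4 against 39.4 and 38.6.

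Of the blood and stromal marker lists, those of B cells and of mast cells were mostly at 0 and the others were not absent. Of the B cell genes, Cd79a and Ms4a1 had no UMI in members while Cd79b, part of the B cell receptor complex, was at 46.6 and 59.2 CPM against 10.8 and 10.5 and was found in 21 members. Of 7 mast cell and basophil genes 6 had no UMI and the summed level was 0 and 3.48 CPM. The 11 T cell genes summed to 52.5 and 52.2 CPM against 133.2 and 138.9, and the 9 myeloid genes to 96.2 and 212.4 against 310.6 and 367.5. Endothelial genes were lower for 4 of 5, beside 2.8% of all genes, but Tek, the angiopoietin receptor, was higher at 75.8 and 76.6 CPM against 9.97 and 10.5. Fibroblast genes summed to 582.8 and 713.7 CPM against 692.2 and 799.9.

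Of 10 transcription regulators linked to tuft cells, 9 were called higher, beside 3.26% of all genes, with a median log2 ratio of 1.79. Hmx2 and Hmx3, homeobox genes, were at 99.1 and 90.5 CPM and at 131.1 and 101.0 CPM, against less than 10 CPM in other epithelial cells. The largest ratio was that of 1810046K07Rik, a coactivator gene of POU2F3, at 142.8 and 208.9 CPM against 3.30 and 5.26 (mean log2 ratio 3.68 ± 0.23, SD, n = 2 wells). Sox9 reached 853.9 and 856.4 CPM against 176.2 and 170.8, and Spib 262.3 and 261.1 against 51.3 and 60.6. Runx1, Hivep3, Gfi1b and Colca2 made up the rest of the 9, and Ascl2 was not called. In the microfold-like cells Gfi1b was at 11.5 and 20.3 CPM, beside 17.5 and 17.4 in members, and Spib at 103.8 and 236.9. Colca2 was uneven there, at 98.0 and 3.38 CPM beside 37.9 and 55.7 in members. Hmx2, Hmx3, 1810046K07Rik, Sox9, Runx1 and Hivep3 were lower there than in members in both wells.

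POU2F3 belongs to a family of proteins that bind the octamer ATGCAAAT, so promoter windows of RefSeq genes (GRCm38.p6, 250 bases before to 50 after a gene's start) were searched for these letters on either strand. Of 165 windows of the genes at least 4-fold higher, 7 held it, or 4.24%, against 3.52% of 568 windows of all called-higher genes, 1.40% of 15461 windows of tested genes and 1.74% of all 32851 windows. Windows were found for 131 of the 180 genes and for 3 of the 7 rule genes, none of which held the octamer. The motifs CACGTG, ACCGGAAG and TATAAA were searched in the same way. They were in 7.88%, 0.606% and 9.09% of the windows of genes at least 4-fold higher and in 9.14%, 3.98% and 8.57% of those of tested genes. A match is a run of letters and not a shown binding site, and the genes at least 4-fold higher were taken from the same contrast as the rule, with the rule genes among them and Rgs21 tested only through the members' UMIs, so nothing is read from these shares. The windows of 1810046K07Rik, Hpgds, Rgs21 and Elf3, an epithelial ETS factor gene that was at 381.8 and 337.7 CPM against 36.3 and 45.1, are shown around the octamer (in capitals) on the strand of the gene:
1810046K07Rik, chr9:51328971-51329030, minus strand: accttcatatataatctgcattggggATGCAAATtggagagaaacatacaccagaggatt
Hpgds, chr6:65144871-65144930, minus strand: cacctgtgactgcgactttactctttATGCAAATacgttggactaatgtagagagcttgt
Rgs21, chr1:144567834-144567893, minus strand: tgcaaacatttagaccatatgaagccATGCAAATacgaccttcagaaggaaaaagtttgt
Elf3, chr1:135258587-135258646, minus strand: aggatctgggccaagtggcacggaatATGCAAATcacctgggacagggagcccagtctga
The octamer began 86, 174, 200 and 148 bases before the gene's start in these 4 windows. That of 1810046K07Rik held a second octamer, on the other strand and 55 bases before the start, which the end of the printed stretch cuts. The other windows of the 7 were those of Ano7, Zfp428 and Cables2. Elf3, Ano7, Zfp428 and Cables2 were chosen after their values were seen.

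The 12 genes outside the lists with the highest ratios included Lrmp, Mctp1, Ly6g6f, Ptpn18, Sh2d7, Pik3r5, Plk2, Srpx2, Atp2a3, A630073D07Rik and Agt. Lrmp, which encodes a membrane protein of the endoplasmic reticulum, was the highest, at 1565 and 1748 CPM against 25.3 and 31.7 (log2 ratio 5.44 ± 0.06, SD, n = 2 wells). Atp2a3 encodes a calcium pump of the same compartment and reached 676.1 and 605.7 CPM against 30.0 and 30.3. Pik3r5, a regulatory subunit of a phosphoinositide kinase driven by G proteins, was at 308.9 and 264.6 CPM against 6.44 and 7.41. Mctp1, which encodes a protein with calcium-binding C2 domains, was at 1043 and 1194 CPM against 29.9 and 34.4. Genes outside the lists were also ranked by how closely their share of a cell's UMIs followed the number of rule genes. Across all 4237 epithelial cells of 16 weeks the highest were Sh2d7, Pik3r5, Ly6g6f, Lrmp and Atp2a3, with Spearman coefficients of 0.297 to 0.247. The cells share libraries and depth, and this ranking is a description.

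**Figure D3:**
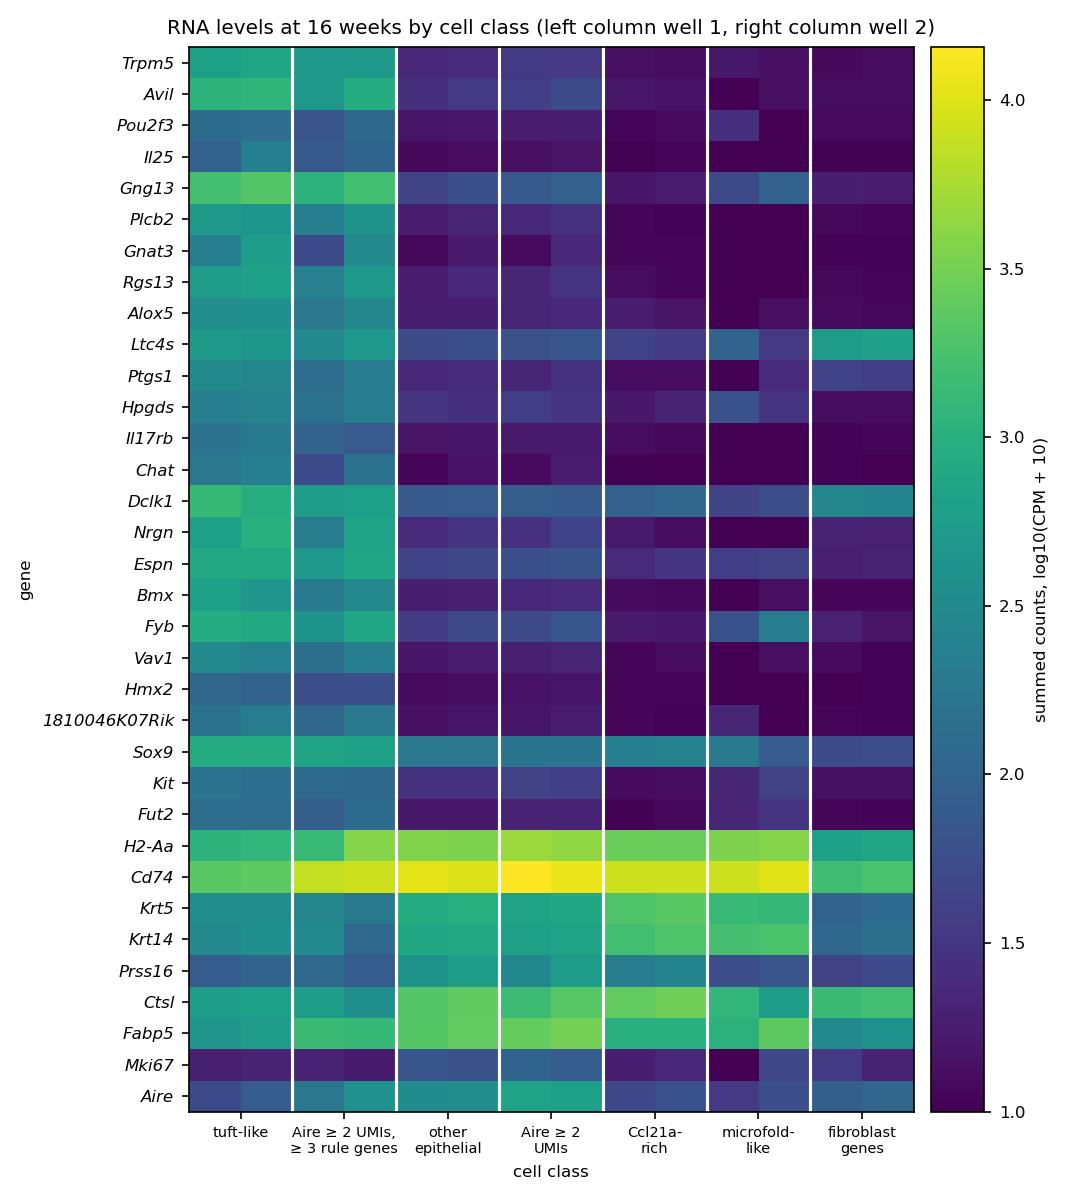
RNA level (log10 of CPM + 10, from counts summed over cells) of 34 genes in 7 classes of 16-week cells, well 1 on the left and well 2 on the right of each class. The cells with 3 or more rule genes and Aire at 2 or more UMIs show the tuft genes as well, and members are low in Cd74, Krt5, Prss16 and Fabp5.

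Lower genes included antigen presentation by MHC class II, with 5 of 7 called, beside 2.8% of all genes. Cd74, the invariant chain, stood at 2197 and 2343 CPM against 10608 and 9636, and H2-Aa at 1087 and 1198 against 3611 and 3505. In the fibroblast-gene cells, which should have little of it, Cd74 was at 1547 and 1750 CPM. Ciita, the regulator of class II genes, was at 37.9 and 31.3 CPM against 158.4 and 150.9. None of the 7 class I genes was called, and H2-K1 was at 2477 and 3394 CPM against 3232 and 3379.

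Cortical genes were lower for 8 of 10, beside 2.8% of all genes, among them Prss16, a serine protease of cTEC, with 72.9 and 90.5 CPM against 406.1 and 558.9. The chemokine gene Ccl25 was at 46.6 and 111.4 CPM against 574.8 and 735.7, and Ctsl, the cathepsin of cTEC, at 579.9 and 591.8 against 2038 and 2420. The other epithelial cells hold cTEC, which were not set apart for this. Of 13 mTEC genes, 6 were lower, beside 2.8% of all genes, and 1, Cldn3, was higher. Krt5 and Krt14, basal keratins, were at 341.0 and 351.6 and at 294.3 and 376.0 CPM against 758.2 to 973.1. Fezf2, which drives self-antigen expression beside Aire, was at 67.0 and 80.1 CPM against 225.4 and 206.6. Ccl21a differed between the wells and was not called, with 2314 and 4045 CPM against 5388 and 5081.

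The 12 unlisted genes with the lowest ratios were Gm43305, Cdh4, Adam28, S100a2, Fabp5, Ccnd2, Pth, Rasl11a, Dmkn, Pltp, Pyy and Kitl. Fabp5, a fatty acid binding protein, was at 428.4 and 553.5 CPM against 2087 and 2505. Ccnd2, a cyclin of the early cell cycle, was at 46.6 and 59.2 CPM against 339.2 and 290.0. The genes of later cell cycle phases were lower for 3 of 8, beside 2.8% of all genes, and Mki67 was at 8.74 and 10.4 CPM against 60.8 and 50.5. Kitl, the ligand of KIT, was at 5.83 and 3.48 CPM against 52.6 and 53.9, on 3 UMIs in members. Pth differed between wells in the other cells too, with 900.8 and 333.4 CPM. Of all 490 genes called lower, 57 had no UMI in members.

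Those markers of other mimetic mTEC that were called were mostly lower in members. Neuroendocrine genes were lower for 2 of 6 tested, beside 2.8% of all genes, and summed to 67.0 and 34.8 CPM against 387.6 and 210.5. Keratinocyte genes were lower for 2 of 7 and gut and liver genes for 2 of 6 tested, beside 2.8% of all genes. No ciliated or ionocyte gene was called. Keratinocyte genes summed to 55.4 and 76.6 CPM against 209.5 and 389.7, gut and liver genes to 128.2 and 181.0 against 415.8 and 597.9, ciliated genes to 37.9 and 52.2 against 56.3 and 71.0, and ionocyte genes to 2.91 and 3.48 against 13.0 and 14.5. Of 7 secretory airway genes 1 was lower, a count too small to set against the 2.8% of all genes. The 5 genes of type 2 innate lymphoid cells summed to 67.0 and 27.9 CPM against 69.4 and 81.5. Of 6 microfold genes Gp2 and Sox8 were called higher, and Tnfaip2 lower, beside 3.26% and 2.8% of all genes. Gp2, a glycoprotein that binds bacteria, had 87 UMIs in 10 members, of which 3 cells held 73, and only 1 member held 3 or more microfold genes.

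Of the 27 surface tags, 9 were higher and 13 lower in both wells on members than on other epithelial cells, and 5 differed in sign between wells. Without scaling 7 were higher and 16 lower, and with a centred log ratio 9 and 11. Levels are log2 of a cell's tag count after scaling to its total tag count. CD117, the receptor KIT, showed the largest difference, with a mean of 3.89 and 4.01 on members against 0.70 and 0.65 on other epithelial cells (difference 3.28 ± 0.12, SD, n = 2 wells). The raw count had a median of 11 on members and 0 on the others, and 62 of 69 members, or 89.9%, carried at least 1 count against 38.6%. On the fibroblast-gene cells, which should lack it, the mean level was 0.96 and 0.87, above that of the other epithelial cells. CD9, a tetraspanin, was higher by 1.95 ± 0.42, EpCAM1 by 1.84 ± 0.03 and CD274 (PD-L1) by 1.78 ± 0.10. UEA1, the lectin that marks mTEC, was higher by 1.15 ± 0.01 in this mean, but its median raw count was 1153 on members against 1029 in well 1 and 665 against 848 in well 2, and it stood only 0.18 above the Ccl21a-rich cells. The other epithelial cells hold cTEC, which bind little UEA1. CD80, a costimulatory ligand, was higher by 1.12 ± 0.15. HVEM was higher by 0.48 ± 0.26, and CD133 and Ly6C/Ly6G by 0.13 and 0.08.

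**Figure D4:**
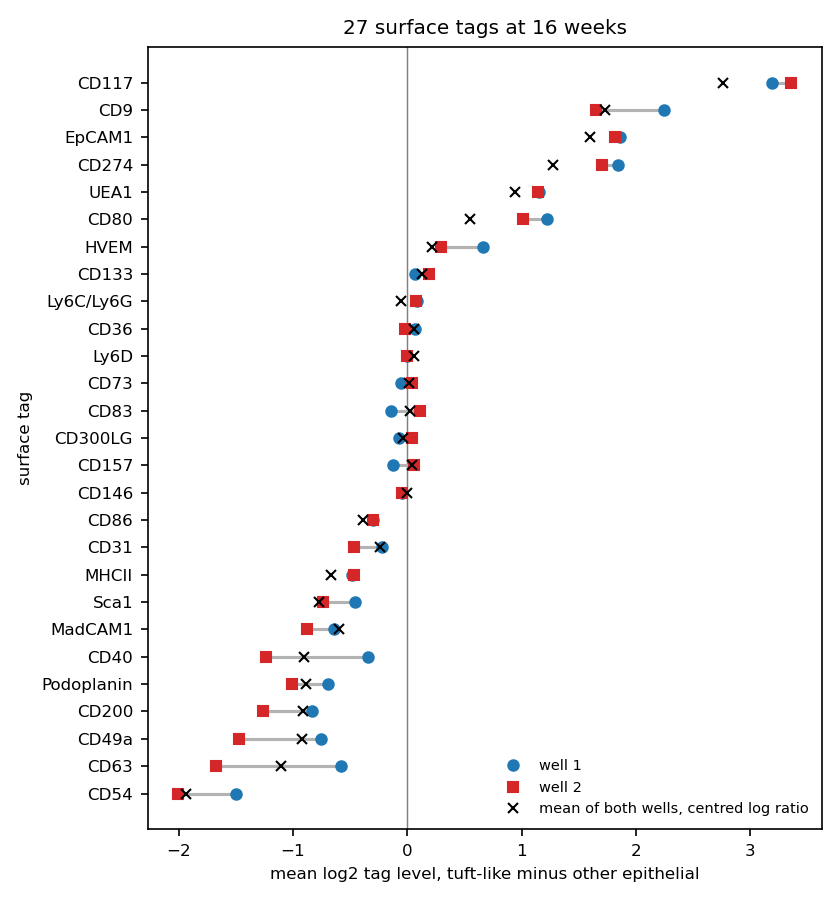
Difference in mean log2 tag level, tuft-like minus other epithelial cells, for 27 tags at 16 weeks, with circles for well 1, squares for well 2 and crosses for the mean under a centred log ratio. CD117 stands alone at 3.19 and 3.36, and CD54 has the most negative difference.

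CD54 (ICAM-1) had the most negative difference, with a level of 6.22 and 5.67 on members against 7.72 and 7.68. CD63, a tetraspanin of lysosomes, was lower by 0.58 in well 1 and by 1.67 in well 2, so its size differed between wells by more than that of most tags. Sca1 was at 6.99 and 6.69 against 7.45 and 7.42, and MHCII at 10.06 and 10.04 against 10.54 and 10.51. The levels of CD49a, CD200, Podoplanin, CD40 and MadCAM1 were lower by means of 1.11, 1.05, 0.85, 0.79 and 0.76. CD31 and CD86 were lower by 0.34 and 0.30. CD146, lower by 0.05, and Ly6D, with no count on members and almost none on other cells, differed too little to be read and had mixed signs with a centred log ratio. CD36, CD73, CD83, CD157 and CD300LG were mixed. MHCII took 30.6% and 40.5% of the tags on members against 56.5% and 54.7% on the others, and UEA1 took 47.2% and 45.2% against 27.2% and 29.4%, and the scaled level of each tag depends on these shares. Without any scaling, HVEM was higher by 0.38 in well 1 and lower by 0.07 in well 2, and Ly6C/Ly6G was lower in both wells.

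Tags and RNA went the same way for some proteins only. Kit was at 151.5 and 132.3 CPM on members against 17.9 and 18.3, higher as was its tag CD117. For CD9, CD274 and CD80 the tag was higher while the RNA was not, with Cd9 at 221.5 and 320.3 CPM against 335.4 and 337.3, Cd274 at 67.0 and 59.2 against 81.9 and 96.5, and Cd80 at 11.7 and 13.9 against 31.2 and 34.5. Icam1, Itga1, Cd200, Cd40, Madcam1, Ly6a and H2-Ab1 were called lower as were their tags. UEA1 binds fucose that FUT1 and FUT2 attach. Fut2 was higher, with 128.2 and 125.3 CPM against 6.52 and 6.67, and Fut1 was not called, with 11.7 and 3.48 against 17.0 and 18.9. Ceacam1, the gene of CD66a, which had no tag, was at 107.8 and 62.7 CPM against 11.7 and 6.98. Fut2 and Ceacam1 were chosen after their values were seen.

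**Figure D5:**
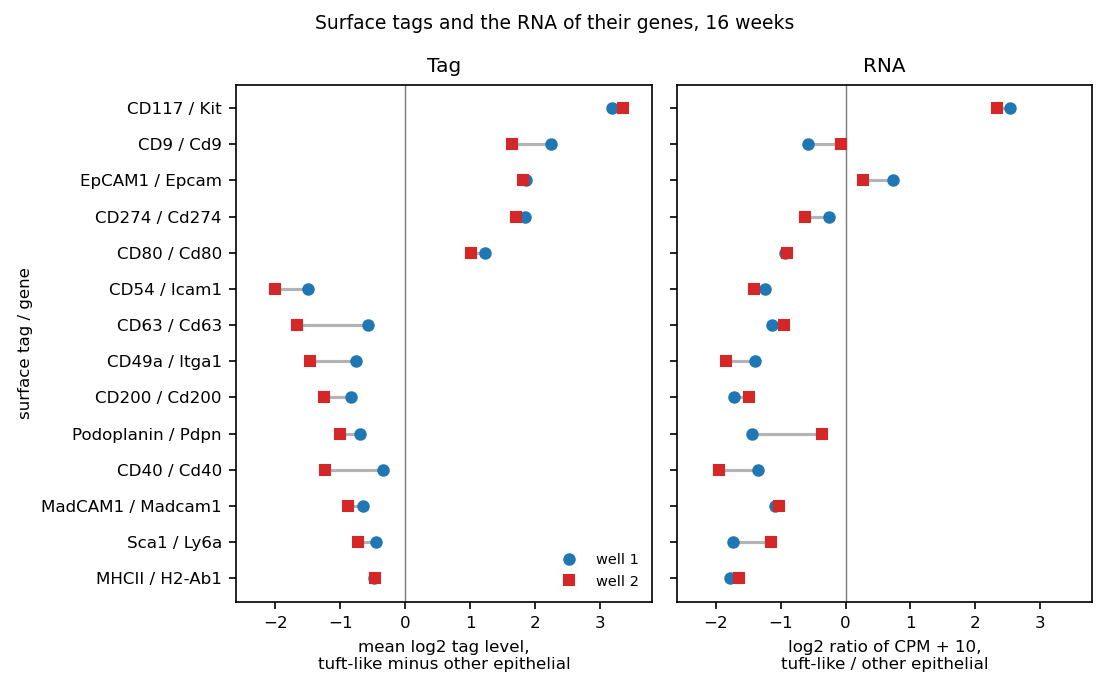
Left, difference in mean log2 tag level (tuft-like minus other epithelial). Right, log2 ratio of CPM + 10 for the gene of each tag, with circles for well 1 and squares for well 2 in both panels. CD9, CD274 and CD80 lie above 0 as tags and at or below 0 as RNA.

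CD117 was not restricted to the members. Of 60 epithelial cells of 16 weeks with at least 20 counts of CD117, 20 were members, 20 had 3 or more rule genes with Aire at 2 or more UMIs, 6 others had 1 or 2 rule genes and 14 had none. By level the members still varied, with lower and upper quartiles of 3.22 and 5.09 in well 1 and of 3.03 and 5.54 in well 2.

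The comparison changed with the class it was made against. Against 1559 Aire-expressing cells (2 or more Aire UMIs, the 56 with 3 or more rule genes among them), 536 of the 17474 genes were higher in members and 585 lower, or 3.07% and 3.35%. Against 709 Ccl21a-rich cells, 783 and 573 were (4.48% and 3.28%), and against 39 microfold-like cells 656 and 455 (3.75% and 2.6%). CD117 was higher against each of these 3 classes, by 3.20 ± 0.15, 3.42 ± 0.10 and 3.23 ± 0.30. For Sca1 the sign depended on the class and on the scaling. It was 1.92 ± 0.18 below the Ccl21a-rich cells, 0.71 ± 0.34 above the Aire-expressing cells and 0.05 ± 0.03 below the microfold-like cells. With a centred log ratio it was lower against all 3, with mean differences of -1.69, -0.24 and -0.89. CD63 was 2.02 ± 0.75 below the Ccl21a-rich cells, and against the Aire-expressing cells it was 0.24 higher in well 1 and 1.00 lower in well 2. With a centred log ratio this last difference was -0.53 and -1.25, lower in both wells. MHCII was 0.87 ± 0.06 below the Aire-expressing cells and 0.18 ± 0.06 above the Ccl21a-rich cells. CD54 was lower than in all 3 classes, by 1.49, 2.20 and 0.93. Of the other raised tags, CD9, EpCAM1 and CD274 were higher than in all 3 classes under both scalings. CD80 was higher than in the Aire-expressing cells by 0.43 and than in the microfold-like cells by 0.40, but with a centred log ratio these differences were -0.56 and -0.35. UEA1 was higher than in the microfold-like cells by 0.31 and with a centred log ratio differed by -0.55, and against the Aire-expressing cells it was higher by 1.04 but of mixed sign with a centred log ratio.

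Against the 56 cells with 3 or more rule genes and Aire at 2 or more UMIs, only 27 genes were higher and 104 lower, or 0.155% and 0.595%. Gng13 was at 1060 and 1575 CPM in these cells and Trpm5 at 465.4 and 493.7. Cd74 was at 7443 and 8254 CPM, more than 3 times its level in members, and Fabp5 at 1427 and 1303. CD117 stood at 3.36 and 3.20, below the members by 0.66 ± 0.19, and CD80 at 4.86 and 4.52, above them by 0.57. For CD63 the wells differed in sign. For CD54 they did so too, but with a centred log ratio CD54 was lower in both wells, by 0.39 and 1.24. EpCAM1, CD274 and UEA1 were higher on members by 0.34, 0.18 and 0.23. With a centred log ratio these differences were -0.21, -0.33 and -0.33. CD9 and CD117 were higher under both scalings.

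Detection of the genes of tuft cell outputs differed from cell to cell. Il25 and Chat were detected together in 20 of 69 members, Il25 without Chat in 10, Chat without Il25 in 22 and neither in 17. Il25 and Gnat3 were found together in 11 members, Il25 without Gnat3 in 19, Gnat3 without Il25 in 17 and neither in 22. Gnat3 was found together with Chat in 25 of the 28 members that held it. These are shares of cells with a UMI, at a median depth of 6897 UMIs, and a cell without one may still express the gene, so they do not show whether members differ in expression.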

How the data were processed

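Per the methods and labels, reads had been mapped by the authors with STARsolo 2.7.9a (mm10, Ensembl 102), and cells under 2000 UMIs had been removed. The deposited tables hold raw counts, in UMIs per gene and per tag for each of 9953 cells, with no normalisation. Labels name version 2 of the kit and the methods version 3, and the difference cannot be settled here. Libraries were read from cell names. Gene symbols and positions came from GENCODE M21 (GRCm38), which matched 55141 of 55487 identifiers.

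Counts were summed over the cells of a class in each 16-week well and scaled to CPM, with 10 CPM added before log2. Each tag count was scaled from its cell's total to the mean total over cells, and log2 of the scaled count plus 1 was used. Values are given per well or as mean ± SD over 2 wells, with exact 95% Poisson or Clopper-Pearson intervals that cover counting error only. No p-value was computed, because an age is 1 pool. Aire-expressing cells held 2 or more Aire UMIs, Ccl21a-rich cells at least 50 Ccl21a UMIs per 10000, and microfold-like cells 3 or more of 6 microfold genes. Fibroblast-gene cells had more UMIs of the 4 fibroblast genes than of the 4 epithelial ones.

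Scrublet in scanpy 1.11.5 gave doublet scores. The limit it chose by itself called 14 cells, a number too small to be trusted, and the 253 highest scores, at 0.8% per 1000 cells, were called instead. They were left out only in an alternative. Named genes are those of the lists, the genes of the tags, the 12 highest and 12 lowest unlisted genes by the weaker well and the 5 that best followed the number of rule genes. Some genes that the rule names are not reported here. Members, lists and alternatives were chosen with earlier results of these data known. Python 3.11.15, numpy 2.4.6, scipy 1.17.1 and pandas 2.3.3 were used.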

Additional observations from a re-analysis of the deposited data

How the results depend on the processing

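No paired analysis was possible because no result comes from a test. The differences were already taken within each well, and the 2 wells of an age are 1 pool. The mean differences of CD117, CD63 and Sca1 kept their sign in all alternatives, and the other results are shares and counts, which cannot change sign. Of 105 alternative values, 85 stayed within the spread of the wells or within 1.5 times the count. With at least 2 rule genes the share was 2.98%, 294 genes were higher and 152 lower, and the differences were 2.25 for CD117 and -0.29 for Sca1. Without a limit on Aire the share was 3.19%, 216 genes were lower, and the differences were 3.02 for CD117 and -0.82 for Sca1. A pseudocount of 1 CPM gave 967 higher and 3174 lower genes and one of 50 CPM gave 229 and 79. With cells of at least 4000 UMIs CD117 differed by 3.48, with a centred log ratio by 2.76, and with unscaled log2 counts by 2.696, where Sca1 differed by -0.84. With 1 well left out, 834 to 870 genes were higher and 993 to 1272 lower, 10 to 13 tags were higher and 14 to 17 lower, and the share ran from 1.33% to 2.37%, the CD117 difference from 3.19 to 3.36, CD63 from -1.67 to -0.58 and Sca1 from -0.73 to -0.45. The rise in gene counts there follows from asking for 1 well instead of 2. Leaving the Aire-expressing cells with 3 or more rule genes out of the comparison cells, an alternative chosen after seeing the data, gave 581 higher and 504 lower genes. With 69 members, a gene with no UMI in them can still reach 3 UMIs in 630401.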
